A study of Bos grunniens with 6 samples.

Results

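*PDHA2*, *OXCT2*, *AK1* and *VDAC3* are 4 genes of energy supply that were followed here in the testis of the yak (*Bos grunniens*), out of 20953 genes with an expression value. *AK1* (ENSBGRG00000007407) was taken as the gene named for an m6A peak on chromosome 9, *VDAC3* by its ID (ENSBGRG00000007025), and *PDHA2* (ENSBGRG00000000876) and *OXCT2* (ENSBGRG00000000695) by the symbols that the study's tables pair with their IDs. For ENSBGRG00000000876 the tables differ, since one gives the symbol *PDHA2* and another *PDHA1*, the somatic form. It was read as *PDHA2* because its description in both tables names the E1 alpha 2 subunit, and every value given for *PDHA2* rests on that reading. All 4 genes were found in the expression table. They were chosen with their difference between the 2 ages in view, so that difference is given as a description without a test.

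The study compared testicular parenchyma of 3 juvenile yaks that were 6 months old and had not reached sexual maturity (Y6M) with that of 3 yaks that were 30 months old and sexually mature (Y30M). All 6 were healthy males from 1 county, the labels name no treatment, and whole tissue with all its cell types was used. Poly(A) RNA of each yak was fragmented, and 1 part was immunoprecipitated with an antibody against N6-methyladenosine (m6A), a methyl mark on mRNA, while the other part (input) was sequenced without the antibody. Expression was read from the 6 input libraries in FPKM, which are fragments scaled by transcript length and by library size.

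Mitochondria lie along the midpiece of the sperm tail, and glycolysis runs along much of the rest of the tail, so ATP has to be made and passed along the flagellum. The E1 alpha subunit of pyruvate dehydrogenase, which feeds pyruvate into the citric acid cycle, has an X-linked somatic form and an intronless testis form encoded by *PDHA2*, and *OXCT2* encodes the testis form of the CoA transferase that lets cells burn ketone bodies. *AK1* encodes a cytosolic adenylate kinase that turns ADP into ATP and AMP, and *VDAC3* encodes a channel of the outer mitochondrial membrane through which metabolites pass.

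The FPKM values of a library summed to between 683862 and 702778 in Y6M and between 587932 and 624025 in Y30M. Low FPKM values are multiples of what 1 fragment is worth, which gave relative depths of 0.911, 1.03 and 0.752 in Y6M replicates 1, 2 and 3 when Y30M replicate 1 was set to 1, and of 1.07 and 1.05 in Y30M replicates 2 and 3. The testis label was compared with marker genes, of which a symbol was paired with an ID for 1 of 15 of spermatids, 2 of 9 of spermatocytes, 2 of 8 of Sertoli cells, 1 of 6 of Leydig cells, 1 of 2 of endothelium and 0 of 7 of spermatogonia, so the germ cell label rests on few genes. The spermatid gene *GSG1* rose from 0.588 to 1.09 FPKM in Y6M to 442 to 1204 FPKM in Y30M (log2 difference 8.58, limma adjusted p = 1.50e-05), and the summed level of the 2 spermatocyte markers *SYCP3* and *HORMAD1* ranged from 8.47 to 28.0 FPKM in Y6M and from 13.2 to 68.0 FPKM in Y30M. *SYCP3* rose (limma adjusted p = 0.0190) and *HORMAD1* was not called. The 2 Sertoli markers *SOX9* and *FSHR* summed to 65.7 to 93.2 FPKM in Y6M and 19.5 to 35.4 FPKM in Y30M, the Leydig marker *LHCGR* ranged from 34.4 to 67.3 FPKM in Y6M and from 1.44 to 5.37 FPKM in Y30M, and the endothelial marker *PECAM1* from 5.75 to 10.5 FPKM and from 2.03 to 3.08 FPKM. These 4 somatic markers fell, with limma adjusted p between 5.37e-04 and 0.0273, and none of the 7 markers was at 0 in a library. Every change of a gene below goes together with this change in markers, and their part in it was not tested. FPKM gives a level relative to the library. In whole tissue, fewer cells of a type, less RNA per cell and more RNA from other cells cannot be told apart. By histology the study reported more interstitial cells in the sexually mature testis, where *LHCGR* was lower.

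All 4 genes were higher in the sexually mature testis, and the sizes fell into 2 ranges. *PDHA2* and *OXCT2* went from below 0.4 FPKM to above 87 FPKM, whereas *AK1* and *VDAC3* were already expressed in the juvenile testis and had mean levels 12.8 and 3.71 times as high in Y30M. In each gene the lowest Y30M library lay above the highest Y6M library, a pattern shared by 32.2% of the 19477 genes that were above 0 in at least 1 library. Nothing is read from that count, because the genes were chosen on this contrast.

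*PDHA2* measured 0.174, 0.153 and 0 FPKM in Y6M replicates 1, 2 and 3 and 87.0, 127 and 143 FPKM in Y30M replicates 1, 2 and 3. The Y6M values rest on 6, 6 and 0 fragments and those of Y30M on 3301, 5131 and 5665, taking the smallest whole numbers of fragments that give the FPKM. A library with 0 fragments allows a level of up to 0.105 FPKM in Y6M replicate 3 (3 fragments, counting error only). *PDHA2* was thus at the edge of detection in every juvenile library and high in every mature one. From Y6M to Y30M its mean went from 0.109 ± 0.0949 FPKM to 119 ± 28.7 FPKM (SD, n = 3 per group). On the log2(FPKM + 1) scale the difference was 6.73 (SE 0.27, here and below from the limma fit over all genes). That was the 126th largest rise among the 19477 genes. The lowest Y30M library stood 501 times above the highest Y6M library, and the ratio of the means was 1091, or 728 without Y6M replicate 3.

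*OXCT2* measured 0.225, 0.132 and 0.334 FPKM in Y6M replicates 1, 2 and 3, from 9, 6 and 11 fragments. In Y30M it measured 87.0, 400.1 and 174 FPKM in replicates 1, 2 and 3, from 3819, 18741 and 7994 fragments. As with *PDHA2*, the juvenile libraries held almost none of the transcript, but the mature libraries differed more among themselves. Replicate 2 was the highest, 4.60 times the level of replicate 1. Its juvenile mean of 0.230 ± 0.101 FPKM stood against a mature mean of 220.4 ± 162 FPKM (SD, n = 3 per group), and the log2 difference of 7.22 (SE 0.51) was the 80th largest rise. The ratio of the means was 957, and it was 567 without Y30M replicate 2.

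*AK1* measured 7.27, 6.49 and 4.45 FPKM in the 3 Y6M libraries and 48.2, 141 and 45.0 FPKM in the 3 Y30M libraries. Unlike the testis forms above, this kinase was well detected before maturity, with 303 to 608 fragments in a Y6M library and 4267 to 13579 in a Y30M library. Replicate 2 again stood highest in Y30M, at 3.12 times the lowest library, while the other 2 mature libraries lay close together. Means were 6.07 ± 1.45 FPKM before and 77.9 ± 54.2 FPKM after maturity (SD, n = 3 per group), with a log2 difference of 3.30 (SE 0.45), the 1119th largest rise. The ratio of the means of *AK1* was 12.8, and 7.68 without Y30M replicate 2.

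*VDAC3* measured 11.4, 12.4 and 22.8 FPKM in Y6M against 39.0, 46.7 and 87.4 FPKM in Y30M, in replicates 1, 2 and 3. Replicate 3 was the highest library of both groups, and the groups came closest in this gene, with the lowest Y30M library 1.71 times above the highest Y6M library. The same order, with replicate 3 highest in both groups, was found in 26.5% of the genes tested. The Y6M mean was 15.5 ± 6.34 FPKM and the Y30M mean 57.7 ± 26.0 FPKM (SD, n = 3 per group), a log2 difference of 1.80 (SE 0.38) and the 2581st largest rise. Set against the library of the same number, the Y30M level of *VDAC3* was 3.43, 3.76 and 3.83 times the Y6M level. For *AK1* it was 6.63, 21.6 and 10.1 times, and for *OXCT2* 387, 3026 and 522 times. The labels do not pair the yaks of a number, and *VDAC3* was highest in replicate 3 at both ages. The narrow range of *VDAC3* is thus no measure of how well its rise repeats, and across numbers its ratio went down to 1.71.

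**Figure D1:**
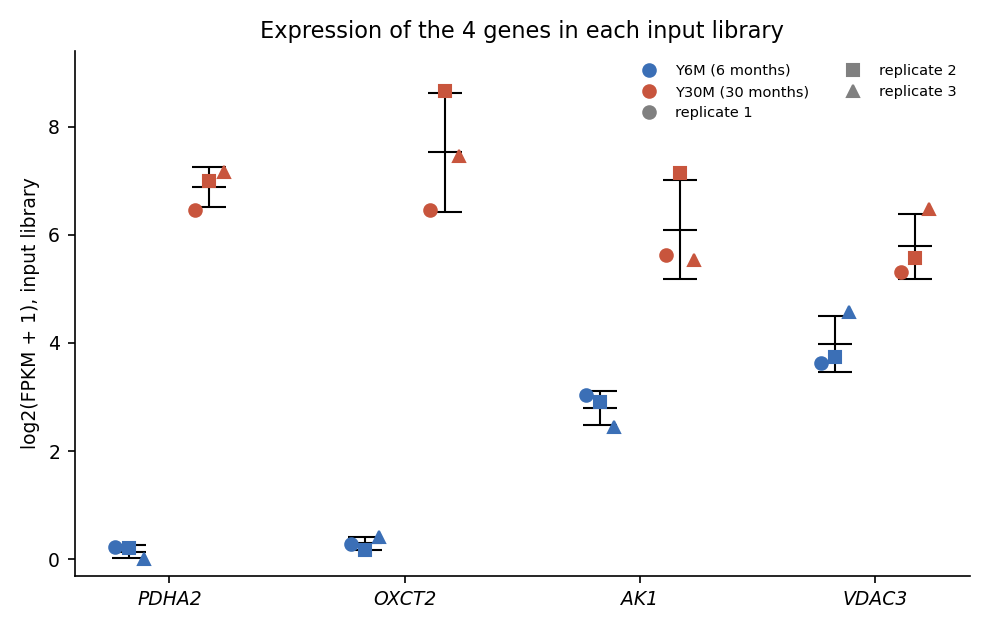
Expression of *PDHA2*, *OXCT2*, *AK1* and *VDAC3* in each input library, as log2(FPKM + 1) on the vertical axis. Each point is 1 library (blue Y6M, red Y30M, the shape giving the replicate number), and the horizontal bar with whiskers is the mean ± SD of 3 libraries. The Y6M points of *PDHA2* and *OXCT2* lie near 0, those of *AK1* and *VDAC3* well above it, and no Y30M point reaches down to a Y6M point of the same gene.

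*PDHA2* and *OXCT2* had lower means than *AK1* and *VDAC3* in Y6M and higher means in Y30M, with *OXCT2* above *PDHA2* by mean at both ages. In Y6M the order by mean level was *VDAC3*, *AK1*, *OXCT2* and *PDHA2*. There the lowest *VDAC3* library (11.4 FPKM) lay above the highest *AK1* library (7.27 FPKM), and the lowest *AK1* library (4.45 FPKM) above every library of the testis forms, while *OXCT2* (0.132 to 0.334 FPKM) and *PDHA2* (0 to 0.174 FPKM) overlapped. In Y30M the order was *OXCT2*, *PDHA2*, *AK1* and *VDAC3*, and every pair of neighbours overlapped in that order. Even *OXCT2* and *VDAC3*, at its ends, met at 87.0 and 87.4 FPKM. Within the library of Y30M replicate 1, *OXCT2* and *PDHA2* were level (ratio 1.00), but in replicate 2 *OXCT2* was 3.16 times as high, and in replicate 3 it was 1.22 times as high. The ratio of *AK1* to *VDAC3* was 0.640, 0.522 and 0.195 in Y6M replicates 1, 2 and 3. In Y30M it was 1.24, 3.01 and 0.515, so *VDAC3* stayed above *AK1* in replicate 3 as in the juvenile libraries.

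Among all genes, *PDHA2* stood above 93.0 to 96.1% of those tested in the Y30M libraries and above 0 to 24.9% in the Y6M libraries. *OXCT2* stood above 93.0 to 98.8% in Y30M, where it was the 226th highest gene in replicate 2, and above 21.3 to 28.6% in Y6M. *AK1* stood above 85.2 to 95.7% of genes in Y30M and above 51.0 to 62.0% in Y6M, and *VDAC3* above 83.8 to 92.7% and 70.0 to 80.5%. The mature testes thus held all 4 transcripts in the upper part of the range of genes. The spread between the Y30M yaks, as the SD in percent of the mean, was 24.1% in *PDHA2*, 45.1% in *VDAC3*, 69.6% in *AK1* and 73.3% in *OXCT2*. Of the 13584 genes with a mean of at least 1 FPKM in Y30M, 28.2% varied less than *PDHA2*, 71.4% less than *VDAC3*, 92.5% less than *AK1* and 94.0% less than *OXCT2*. The last 2 were among the more variable genes of the mature testis, and both were highest in replicate 2, as were 20.6% of the genes tested.

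The genes whose profile lay nearest to each gene were sought among 2141 genes with a symbol, as the root mean square difference of log2(FPKM + 1) over the 6 input libraries. Nearest to *PDHA2* were *CFAP276* (0.300), *CFAP95* (0.396) and *ACSBG2* (0.407). The first 2 are named as cilia and flagella associated proteins, and *ACSBG2* is an acyl-CoA synthetase. *CFAP276* measured 0.191, 0.336 and 0.346 FPKM in Y6M, compared with 66.6, 157 and 119 FPKM in Y30M. Nearest to *OXCT2* were the alpha tubulin gene *TUBA8* (0.466), *SPATA18* (0.543) and *C12ORF54* (0.586). *TUBA8* also peaked in Y30M replicate 2, with 101, 325 and 96.1 FPKM in the 3 Y30M libraries. Nearest to *AK1* were the ubiquitin ligase gene *TRIM32* (0.298), *CLMN* (0.355) and *SCMH1* (0.369). In Y30M *TRIM32* measured 59.6, 93.7 and 53.3 FPKM and *CLMN* 36.0, 139 and 65.7 FPKM. Both were highest in replicate 2, but *TRIM32* by less than *AK1*. *CLMN* was higher in replicate 3 than in replicate 1, unlike *AK1*. *VDAC3* had the closest neighbours, the autophagy gene *ATG3* (0.163), *CAMLG* (0.178) and the phospholipid synthesis gene *CHPT1* (0.208). *ATG3* measured 13.8, 14.1 and 25.8 FPKM in Y6M against 40.2, 41.9 and 81.0 FPKM in Y30M, with replicate 3 highest in both groups as in *VDAC3*. These distances are descriptions over 6 libraries that share their replicate numbers and their groups. The neighbours were picked by their levels in these same 6 libraries. Their likeness to each gene is thus built in, and nothing further is read from it.

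The other genes of these pathways were taken from lists of 117 symbols, of which 9 could be paired with a tested ID. The symbols came from tables of genes with a peak or a change, and 59.4% of all tested genes with a symbol were called, compared with 46.6% of all genes tested. A call needed a limma p of 0.05 or lower together with a change of 1.5-fold or more. Of the 9 genes, 2 rose, 4 fell and 3 were not called, where 27.6% of all genes tested rose and 19.0% fell. Of the 2144 tested genes with a symbol, 711 rose and 563 fell. The median log2 difference of the 9 genes was -1.07, beside 0.035 over all genes tested and 0.068 over those with a symbol. The rise of the 4 genes was thus shared by *PDP1* and *COX7B2* and by no other of these 9 genes.

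Around pyruvate dehydrogenase, 1 of 2 genes rose. *PDP1*, the phosphatase that switches the complex on by removing phosphate from its E1 alpha subunit, measured 4.15, 3.70 and 4.85 FPKM in Y6M, compared with 17.8, 15.6 and 18.4 FPKM in Y30M. Its log2 difference was 1.80 (SE 0.24, limma adjusted p = 8.91e-04), with no overlap between the groups. *DLAT*, the E2 subunit of the same complex, measured 8.72, 8.20 and 11.3 FPKM in Y6M against 13.8, 5.23 and 12.5 FPKM in Y30M. Its groups overlapped, and its log2 difference was 0.058 (SE 0.38, limma adjusted p = 0.915). The level of *PDHA2* per unit of *DLAT* accordingly went from 0.0199, 0.0186 and 0 in Y6M to 6.31, 24.2 and 11.4 in Y30M. *PDHA2* and the somatic E1 alpha gene are close copies. The ID read here as *PDHA2* carries the somatic symbol in one of the study's tables, and no other ID was read for the somatic gene, so which of the pair these values belong to rests on the description. Reads with several alignments were left out by the authors, and how reads of the pair were divided is uncertain as well.

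For the use of ketone bodies, 1 gene beside *OXCT2* could be read. *SLC16A1*, a transporter that carries lactate, pyruvate and ketone bodies into cells, measured 8.78, 8.04 and 10.8 FPKM in Y6M, compared with 10.2, 5.91 and 11.4 FPKM in Y30M. The groups overlapped, and its log2 difference was -0.037 (SE 0.31, limma adjusted p = 0.934). The somatic paralog of *OXCT2* was not analysed here, and reads that the pair share make the level of *OXCT2* uncertain in the same way.

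Among the adenylate kinases and phosphotransfer enzymes, 2 of 3 genes fell and none rose. *AK5*, another adenylate kinase, measured 2.07, 2.13 and 2.79 FPKM in Y6M against 0.0720, 0.0750 and 0.260 FPKM in Y30M, from 9, 10 and 34 fragments in the latter. It fell by 1.55 on the log2 scale (SE 0.15, limma adjusted p = 2.36e-04), while *AK1* was higher in every Y30M library. *AK1* stood 3.50, 3.05 and 1.60 times above *AK5* in the Y6M libraries, and 669, 1874 and 173 times above it in the Y30M libraries. *CKMT2*, a mitochondrial creatine kinase, measured 3.82, 4.56 and 4.11 FPKM in Y6M, compared with 0.596, 0.351 and 0.556 FPKM in Y30M, a log2 difference of -1.78 (SE 0.21, limma adjusted p = 4.97e-04). *CMPK1*, which phosphorylates CMP and UMP, measured 2.86, 2.62 and 8.25 FPKM in Y6M against 1.23, 0.744 and 2.60 FPKM in Y30M. Its groups all but touched, at 2.60 and 2.62 FPKM, and the log2 difference of -1.07 (SE 0.46, limma adjusted p = 0.102) was not called. With the replicate number as a block, the same difference was called (limma adjusted p = 0.0172), though the labels do not pair the yaks of a number.

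*VDAC1*, the most abundant of the channels in many tissues, ran in the opposite direction to *VDAC3*. It measured 126, 131 and 179 FPKM in Y6M, compared with 66.3, 35.1 and 98.4 FPKM in Y30M, with every Y30M library below every Y6M library. It fell by 1.21 on the log2 scale (SE 0.37, limma adjusted p = 0.0342). Without Y6M replicate 3 the log2 difference was -1.05 and the call, which uses the unadjusted p, was lost (limma adjusted p = 0.117). Leaving out any other library kept the call. The limma adjusted p was then 0.0781 and 0.0878 without Y6M replicates 1 and 2. It was 0.0939, 0.0633 and 0.0189 without Y30M replicates 1, 2 and 3. Per library, *VDAC1* stood 11.1, 10.5 and 7.83 times above *VDAC3* in Y6M. In Y30M the ratio was 1.70, 0.751 and 1.13, so the 2 channel genes had come to similar levels, and in replicate 2 *VDAC3* was the higher. This ratio sets 2 genes within a library against each other and does not depend on library size. Its groups could not overlap, because every Y30M library was already higher in *VDAC3* and lower in *VDAC1* than every Y6M library. Nothing further is read from that separation.

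The remaining 2 genes were *GAPDH* of glycolysis and *COX7B2* of the respiratory chain. *GAPDH*, which was also the reference gene of the study's qRT-PCR, measured 769, 795 and 631 FPKM in Y6M against 405, 237 and 353 FPKM in Y30M. It fell by 1.17 on the log2 scale (SE 0.27, limma adjusted p = 0.0105). *COX7B2*, a form of a cytochrome c oxidase subunit, measured 2.67, 0.992 and 0.171 FPKM in Y6M, compared with 140.4, 143 and 297 FPKM in Y30M. It rose by 6.48 on the log2(FPKM + 1) scale (SE 0.48, limma adjusted p = 7.11e-05), from 19, 8 and 1 fragments in Y6M. On that scale the rise was near those of *PDHA2* and *OXCT2*. Its ratio of means was lower, at 151 beside 1091 for *PDHA2* and 957 for *OXCT2*.

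**Figure D2:**
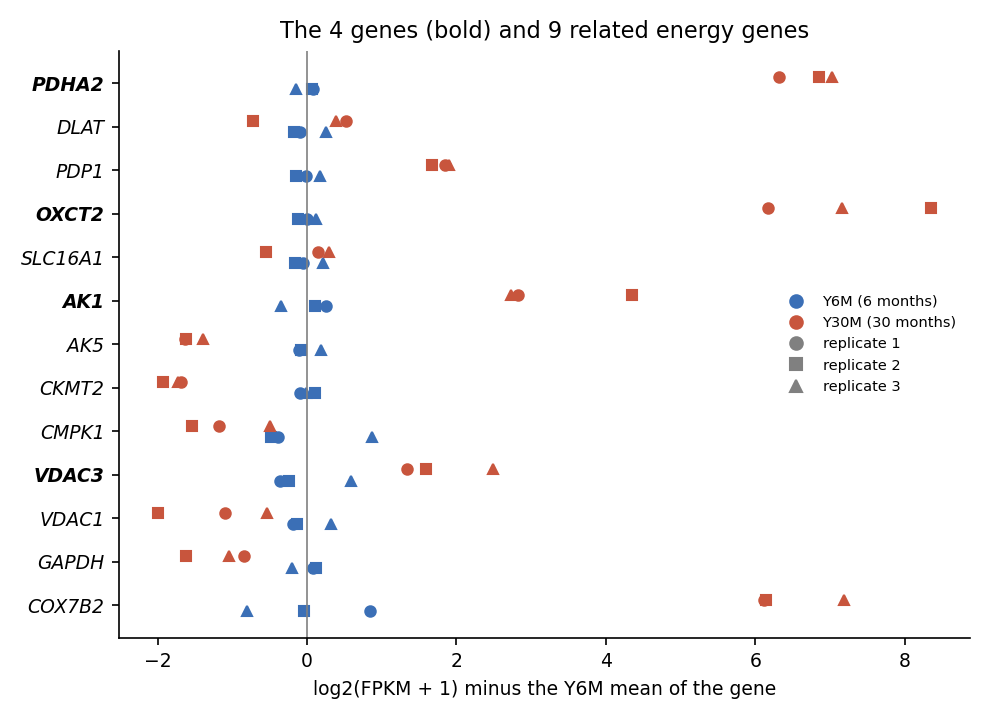
Log2(FPKM + 1) of each input library minus the Y6M mean of the gene (horizontal axis), for *PDHA2*, *OXCT2*, *AK1* and *VDAC3* (bold) and 9 related genes. Points are libraries, blue for Y6M and red for Y30M, with the shape giving the replicate number. The Y30M points of *PDHA2*, *OXCT2* and *COX7B2* lie furthest to the right, those of *VDAC3* and *PDP1* to the right of 0, and those of *AK5*, *CKMT2*, *VDAC1* and *GAPDH* to the left.

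The m6A data were then read for the same genes. The deposited comparison lists 16318 peaks in 8809 genes, each with 1 fold enrichment of IP over input for both ages together, so a peak has no value per yak and no replicate error. The columns that compare the ages were not used. By the gene name in that table, 1 of the 4 genes had peaks. *AK1* had 3, and *PDHA2*, *OXCT2* and *VDAC3* had none. A peak was listed for 44.3% of all genes tested, and 19.6% of the genes with a peak had 3 or more. Among the 9 related genes, *SLC16A1* had 5 peaks, *PDP1* 3, *DLAT* 2, and *AK5*, *CKMT2* and *VDAC1* 1 each, while *CMPK1*, *GAPDH* and *COX7B2* had none.

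*AK1* lies on the minus strand of chromosome 9 in the LU_Bosgru_v3.0 assembly, and its 3 peaks are given from 5′ to 3′. Which of their blocks are coding or untranslated was not analysed here. Peak 1 (chr9:7218942-7219092) was a single block of 151 bp with a fold enrichment of 3.39, above 84.9% of all peaks. Its enrichment FDR was nevertheless 1, so the peak with the highest ratio of the 3 was listed but did not reach an FDR of 0.05. Peak 2 (chr9:7214347-7218694) spanned 4348 bp but consisted of 4 exon blocks of 146, 164, 117 and 121 bp, together 548 bp. Its enrichment was 3.15-fold, above 79.0% of peaks, with an FDR of 3.39e-09. Peak 3 (chr9:7213749-7213948) was a block of 200 bp enriched 1.95-fold, above 33.7% of peaks, with the same FDR of 3.39e-09. For comparison, the median over all peaks was an enrichment of 2.31-fold and a block length of 296 bp, and 69.0% of peaks had an FDR of at most 0.05. The enrichment of *AK1* was therefore higher in the 2 peaks towards the 5′ side than in the most 3′ one, and 2 of its 3 peaks had an FDR of at most 0.05.

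The list of adenosines scored within the Y6M peaks holds 1 peak in *AK1* (chr9:7213699-7218694), called from the juvenile libraries alone. It spans 4996 bp and covers all of peaks 2 and 3 above, but it ends short of peak 1. Within it 88 adenosines were scored between 0 and 1 for methylation, and 25 of them (28.4%) scored 0.528 or higher and were predicted as m6A sites. Over the whole Y6M list, 438289 of 2035099 adenosines (21.5%) in 15116 peaks were predicted. The median score was 0.475 in *AK1* and 0.424 over the list. Adenosines of 1 peak share their sequence context, so this share was not tested.

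Of the 25 predicted sites in *AK1*, 1 was of very high confidence, 12 of high, 5 of moderate and 7 of low confidence. Most of the scored adenosines, 80 of 88, lay outside the exon blocks of the 3 compared peaks. The Y6M peak is listed as 1 span, with the stretches between the blocks. The highest score, 0.690 at chr9:7215862, was at one of these 80. Of the 8 adenosines inside the blocks, 2 were predicted, at chr9:7218626 (score 0.664) and chr9:7218688 (score 0.581). Both lay in the most 5′ block of peak 2, whereas the 3 adenosines of peak 3 scored at most 0.475 and none was predicted. The Y30M list as used here covers chromosomes 1 and 2, so the sites of *AK1* and any peaks of *PDHA2*, *OXCT2* and *VDAC3* that were called in mature testis alone were not analysed.

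**Figure D3:**
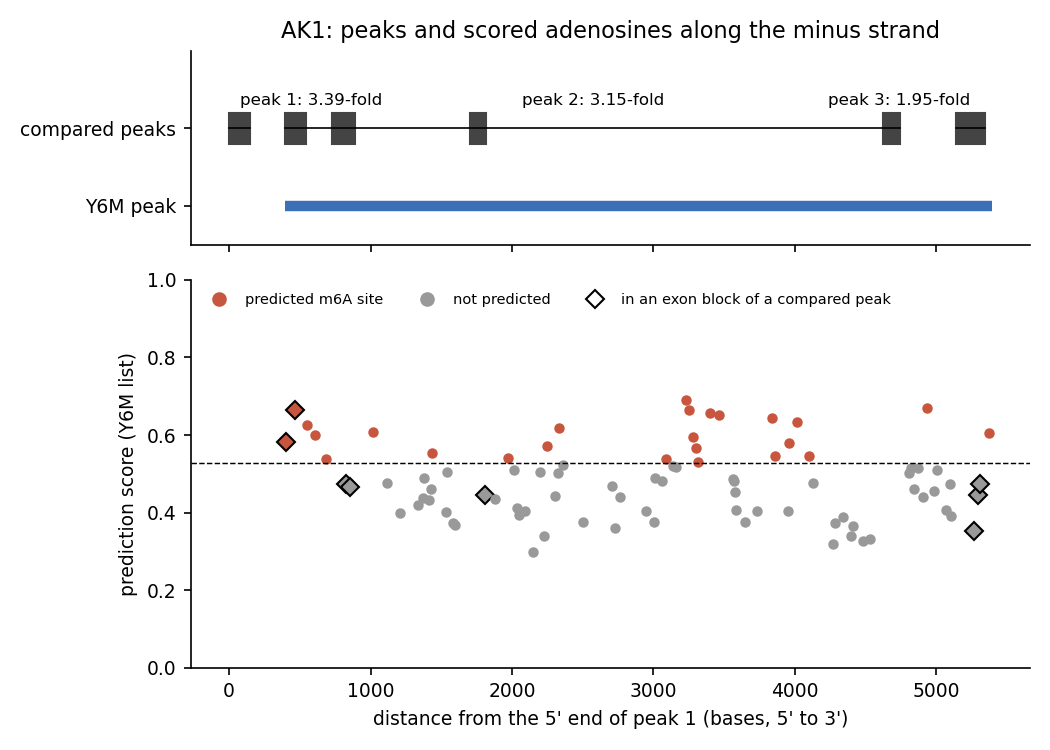
Map of *AK1* along the minus strand, with the distance from the 5′ end of peak 1 in bases on the horizontal axis. The upper panel draws the exon blocks of the 3 compared peaks with their fold enrichment and the span of the Y6M peak, and the lower panel the score of each of the 88 adenosines (red predicted, grey not, diamonds inside an exon block, dashed line at 0.528). The 2 predicted adenosines inside a block lie at the 5′ end of the Y6M peak, and the other 23 lie between the blocks or beyond them.

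A peak on chromosome 28 needs a separate account, since the study's tables place it in *VDAC3* while the name column of the deposited comparison gives it another gene. The peak (chr28:16482220-16482368, plus strand, 149 bp) carries the ID ENSBGRG00000015933, which had 3 peaks in all and no symbol in the tables used here. Its enrichment was 1.24-fold, lower than in all but 1.31% of peaks, its FDR was 1, and it overlapped no Y6M peak. The other peaks of that ID were enriched 3.03-fold and 2.22-fold, also with an FDR of 1. The expression of the 2 IDs ran in opposite directions. ENSBGRG00000015933 measured 14.3, 14.1 and 11.8 FPKM in Y6M against 5.40, 1.96 and 3.35 FPKM in Y30M, a log2 difference of -1.72 (SE 0.34), whereas *VDAC3* (ENSBGRG00000007025) was higher in every Y30M library. This ID was added after its values had been seen. The study lists this peak beside a *VDAC3* mRNA that is higher in mature testis, which is the direction of ENSBGRG00000007025. An m6A value read for *VDAC3* therefore depends on which of these names is used.

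The 2 genes that were near 0 in Y6M were also set beside genes with a like expression pattern. Of the 3874 genes with a mean of at least 30 FPKM in Y30M, 46.5% had a compared peak. Those with a mean of at least 1 FPKM in Y6M had one in 1779 of 3406 cases (52.2%), whereas those below 1 FPKM in Y6M, *PDHA2* and *OXCT2* among them, had one in 24 of 468 cases (5.13%). The absence of *PDHA2* and *OXCT2* from the compared peaks was thus shared by most genes that were high in mature and near 0 in juvenile testis. *AK1*, with 3 peaks, and *VDAC3*, with none under its own ID, belong to the other class. These limits were chosen after the values had been seen, and the shares are a description of 1 peak table without replicate error.

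**Figure D4:**
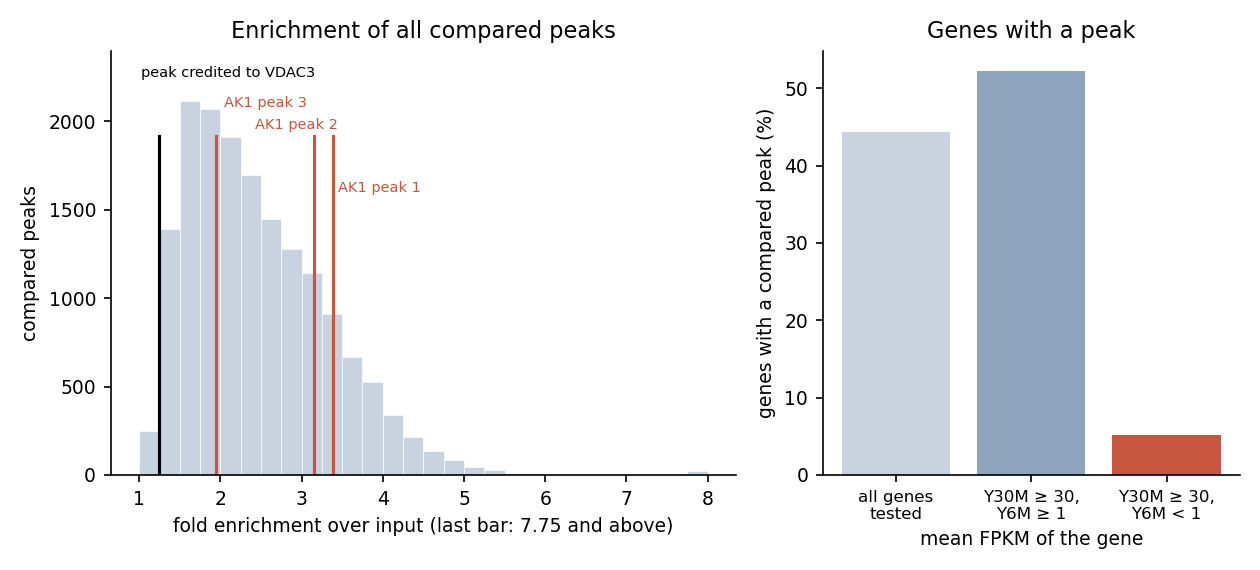
Left, number of compared peaks (vertical axis) by fold enrichment over input (horizontal axis), with red lines at the 3 *AK1* peaks and a black line at the chromosome 28 peak that the study's tables place in *VDAC3*. Right, percentage of genes with a compared peak among all genes tested (44.3%) and among genes with a mean of at least 30 FPKM in Y30M, split by a Y6M mean of at least 1 FPKM (52.2%) or below it (5.13%). The black line lies at the low end of the distribution, and 2 of the red lines lie in its upper part.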

How the data were processed

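Testicular RNA of 3 Y6M and 3 Y30M yaks gave 12 libraries, 1 input and 1 IP library per yak. The authors trimmed reads with Trimmomatic, removed ribosomal RNA with SortMeRNA, aligned with HISAT2 to LU_Bosgru_v3.0, excluded reads with multiple alignments, and called peaks with MeTDiff. The versions and the tool behind the FPKM are not given in the sources used here. The authors deposited FPKM per gene for the 6 input libraries. The deposited comparison of peaks gives a fold enrichment over input and a log10 FDR for both ages together, and the authors' list of adenosines gives a prediction score. The columns of the deposited comparison that hold the fold change, p-value and FDR between the ages were not used.

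Genes above 0 FPKM in at least 1 library (19477) were fitted with limma (version 3.58.1, R 4.3.3, eBayes with trend) on log2(FPKM + 1), without covariates, and p-values were adjusted by Benjamini-Hochberg over all of them. A log2 difference on this scale understates the change of low genes. Each SE comes from this fit, in which the variance of a gene is drawn towards that of genes of like level. For *OXCT2*, *AK1* and *VDAC3* it is smaller than the spread of their own libraries alone would give, and for *PDHA2* it is larger. The numbers of fragments behind FPKM values were taken as the smallest whole numbers that fit within 0.05. Symbols were taken from the study's tables (2153 IDs), and no sequence was used. Named genes were the 4 genes, every tested gene of 6 lists of energy genes with a symbol, and the 3 nearest profiles per gene. The members and lists were chosen with earlier results of these data known. Alternatives were a pseudocount of 0.1, rescaling of FPKM, a filter on low values, other thresholds, the replicate block and leaving out libraries.

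The labels do not say what a replicate number stands for. Deviations from the group means correlated between libraries of the same number at r = 0.237, 0.304 and 0.630 for numbers 1, 2 and 3 (across 13912 genes, which are not independent replicates). The labels do not pair a yak of one age with a yak of the other, so the block was run as an alternative only. Y6M replicate 1 correlated more with Y30M replicate 2 (0.335) than with its own number, and the 2 libraries of replicate 3 stood apart from the others. The yaks are the replicates, and 3 against 3 can give an exact permutation p of no less than 0.1 for a single gene.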

Additional observations from a re-analysis of the deposited data

How the results depend on the processing

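*PDHA2*, *OXCT2*, *AK1* and *VDAC3* were higher in Y30M under every alternative run. A pseudocount of 0.1 gave log2 differences of 9.25 for *PDHA2* and 9.16 for *OXCT2*, since values near 0 weigh more on that scale. Leaving out 1 library at a time gave 6.58 to 6.94 for *PDHA2*, 6.66 to 7.75 for *OXCT2*, 2.77 to 3.58 for *AK1* and 1.47 to 2.10 for *VDAC3*. If each peak had to cover 50% or more of the other, the Y6M peak of *AK1* matched 1 compared peak in place of 2.

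Over the 9 related genes, 2 rose and 3 to 5 fell when 1 library was left out, and 5 fell with the replicate block. The added gene was *CMPK1*. The block changed no other call among these 9 genes, and over all genes it gave 5718 higher and 4191 lower in place of 5378 and 3702. Leaving out 1 library gave 4770 to 5368 higher and 3061 to 3717 lower. By unadjusted p, *CMPK1* was also called with a pseudocount of 0.1 (-1.49, limma adjusted p = 0.0735) and with median-of-ratios scaling (-1.16, limma adjusted p = 0.0565). The same held among genes with a mean of at least 1 FPKM (-1.07, limma adjusted p = 0.0455) and without Y30M replicate 3 (-1.36, limma adjusted p = 0.0855). It was called as well with both libraries of replicate 3 left out (-0.92, limma adjusted p = 0.0447), an alternative added after seeing the data.

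The sign of 2 genes that were not called depended on the setting. *DLAT* was at -0.060 with median-of-ratios scaling and at -0.026, -0.17 and -0.11 without Y6M replicate 2, Y30M replicate 1 and Y30M replicate 3, within a range over left-out libraries of -0.17 to 0.45. *SLC16A1* was at 0.13 with FPKM rescaled to the same sum, and at 0.071 and 0.22 without Y6M replicate 3 and Y30M replicate 2, within a range of -0.20 to 0.22. The cause was not tested.

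Depth limits the Y6M values of *PDHA2* and *OXCT2*, which rest on at most 11 fragments a library, and the reads behind the peak values are unknown.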
